A study of Saccharomyces cerevisiae with 51 samples.

Results

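The genes described here are the intronless protein-coding genes that lie close to the centromeres of budding yeast, 348 of 6302 such genes in the nuclear genome. They were chosen by annotation and position alone, with no measured signal. A gene was taken if its annotation was protein-coding, it had 1 exon record, its name did not begin with RPL or RPS, and its nearest end lay 20 kb or less from the interval between the chromosome arms. That interval is the stretch that separates the innermost gene of the left arm from the innermost gene of the right arm, the arm being the third letter of the systematic identifier, and it stands for the centromere here. All 16 nuclear chromosomes contributed members, between 17 and 27 each.

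The series holds 51 ChIP-seq libraries of Saccharomyces cerevisiae BY4741: input DNA, histone H3 and H3 phosphorylated at serine 10 (H3pS10). They were made from ipl1-TetR-mCh, sgo1-TetR-mCh, sgo1 delta, H3-S10A and wild-type cells with or without beta-estradiol (E2, 1 nM for 3 hours), and from ipl1-321, cdc15-1 and wild-type cells heated at 37 °C for 90 minutes. Wild-type cells with and without E2 have 3 libraries per assay, and every other group has 1. The files analysed here hold gene coordinates, chromosome lengths and bins of a before and an after version of the genome without any library's signal, so no H3pS10 level of these genes is given and the depth of the libraries is unknown. Coordinates below are 1-based positions in the before version unless the after version is named, and distances are the bases between a gene and the interval, so that the gene next to the interval has a distance of 0.

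The centromere of a budding yeast chromosome is a short DNA element on which 1 kinetochore is built, and it has no repeat arrays of the kind that surround human centromeres. Ordinary genes therefore come close to it on either side. The region around it, the pericentromere, is known for a high density of cohesin, the ring complex that holds sister chromatids together, for shugoshin (Sgo1) and for the Aurora B kinase Ipl1, which phosphorylates H3 at serine 10. Cohesin is also known to gather where the 3′ ends of neighbouring genes face each other, and for this reason the orientation and spacing of the genes were examined.

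Of 7071 nuclear genes, 6664 were protein-coding, 6346 of them had 1 exon record, and 6302 were left without the RPL and RPS genes. The windows held 375 protein-coding genes, of which 27 were not members. All 27 had 2 or more exon records, and 2 of them also carried an RPL name (RPL14A and RPL14B). Whether each of the 27 has an intron was not checked. The members YBL005W-A, YFL002W-B and YHL009W-A each lie wholly inside 1 of these genes on the same strand (YBL005W-B, YFL002W-A and YHL009W-B). The members were 5.52% of the intronless class, and the windows of 20 kb on either side made up 5.30% of the nuclear genome. These 2 shares are not measured alike, since members that reach beyond 20 kb are counted. By midpoint, 336 genes lay within 20 kb. Just inside the threshold lay GAT3 (distance 19950 bp), DOT5 (19952 bp) and CDC15 (19954 bp). Just outside lay YAP3 (20031 bp), YFR012W-A (20114 bp) and RET3 (20142 bp).

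Numbers per arm ranged from 6 on the left arm of chromosome II to 15 on the right arm of chromosome XIV, with a median of 11 over the 32 arms. Systematic numbers of yeast genes count outward from the centromere, and the members kept that order. Of 316 neighbouring members on the same arm, 1 pair had a falling number outward, YAL004W and SSA1 on chromosome I, which overlap. The highest number among the members was 19, in CDC15 (YAR019C). A standard gene name was given for 284 members, and 64 had only the systematic identifier.

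**Figure D1:**
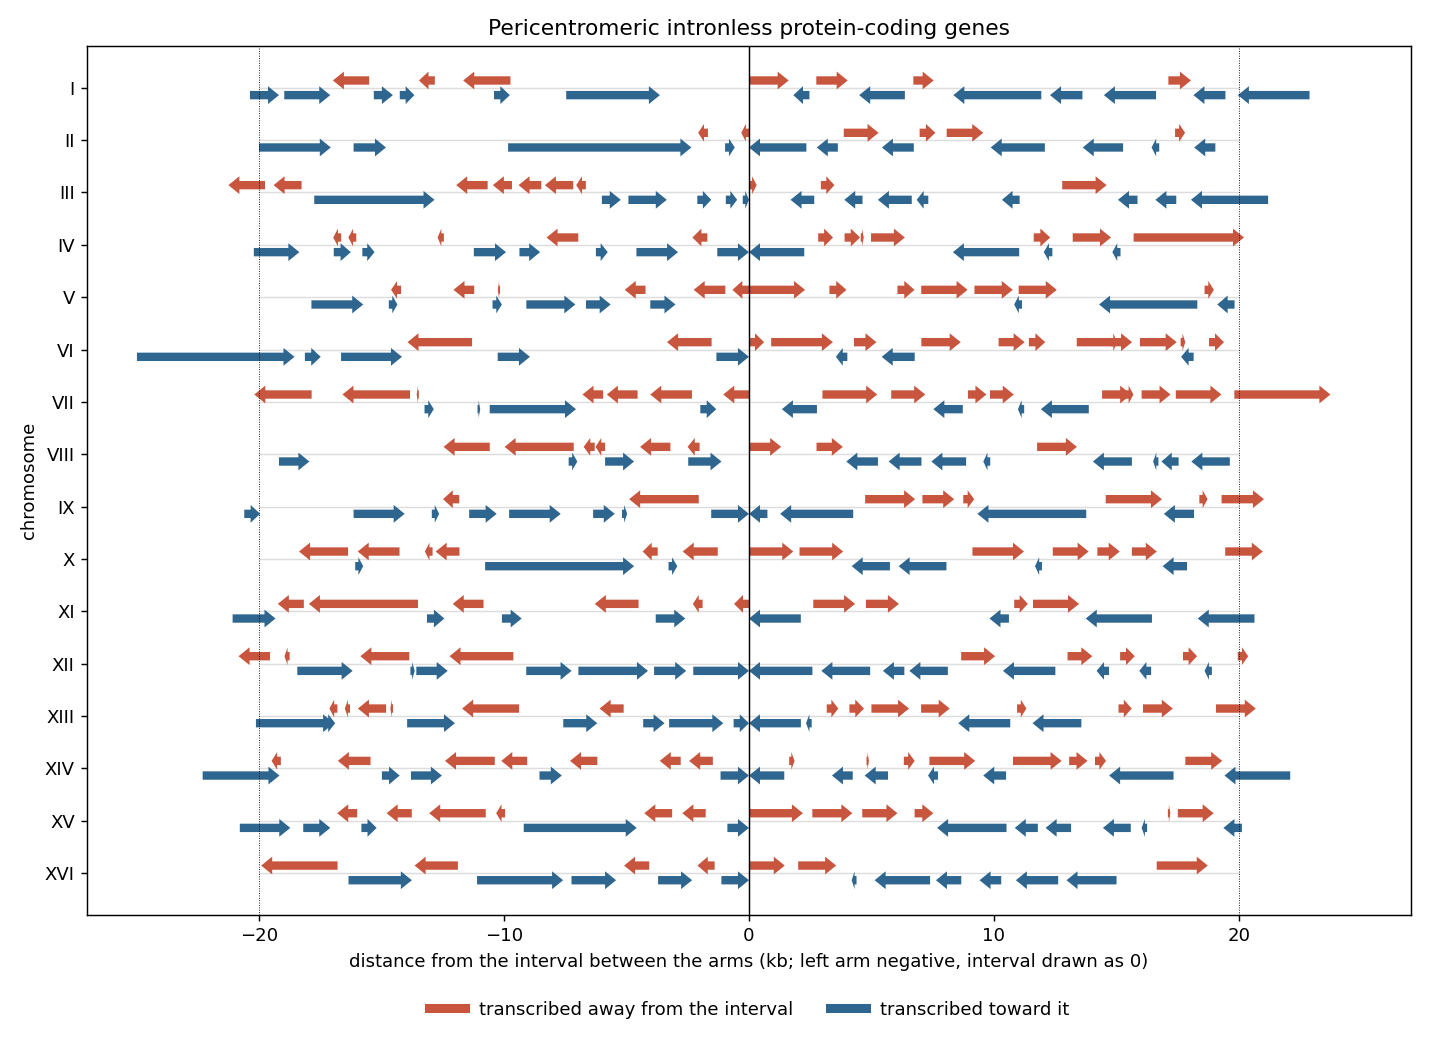
Position, length and direction of transcription of the 348 members on the 16 chromosomes, with distance from the interval between the arms in kb on the x axis (left arm negative; the interval itself is drawn as 0). Arrows point in the direction of transcription, those leading away from the interval drawn above each line and those leading toward it below; on chromosome XII the 4 nearest members of each arm point toward the interval.

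The members that touch the interval itself numbered 28 of the 32 genes next to it. The other 4 had 2 or more exon records: TFC3, RPL14B, PRE3 and AML1. Of the 28 members, 12 were transcribed away from the interval and 16 toward it. NUP60 on chromosome I (152257 to 153876), a nuclear pore protein gene, was transcribed away. CDC5 on chromosome XIII (269019 to 271136), the polo kinase gene, was transcribed toward it, as was YPT7 (267174 to 267800), a vacuolar Rab GTPase gene on the other side of the same interval. On chromosome XVI, HAT1 (554605 to 555729), a histone acetyltransferase gene, was transcribed toward the interval and CIT3 (556377 to 557837), a citrate synthase gene, away from it. The pair flanking the interval of chromosome XV had the same layout, with PHO80 (325249 to 326130), a cyclin of phosphate signalling, toward it and RRP6 (326832 to 329033), a nuclear exosome nuclease, away from it.

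On chromosome I, 20 members included NUP60, ERP1 (1808 bp), a p24 family gene of vesicle transport, and SWD1 (2748 bp), a subunit gene of the COMPASS H3 lysine methyltransferase. RFA1 (4497 bp), which encodes the large subunit of the single-strand DNA binding protein RPA, and the Hsp70 gene SSA1 (9735 bp) lay further out. ADE1 (17118 bp), an adenine biosynthesis gene and a classic centromere-linked marker, was also a member. Away and toward counts were 7 and 13.

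Chromosome II had the fewest members, 17, with 6 away and 11 toward. ECM15 (237153 to 237467) and NTH2 (238941 to 241283) touched the interval. The longest member of all, UTP20 (227636 to 235117; 7482 bp), a gene of small ribosomal subunit assembly, lay 2350 bp from the interval and pointed toward it. It was preceded by the divergent histone pair HTB2 and HTA2, at 580 and 1675 bp.

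Chromosome III had 24 members, among them RER1 (1542 bp), which encodes a receptor that returns proteins to the endoplasmic reticulum, CDC10 (1695 bp), a septin gene, and MRPL32 (2935 bp), a mitochondrial ribosomal protein gene. CDC10 is known as a neighbour of the first yeast centromere that was cloned. DCC1 (18261 bp), known from sister chromatid cohesion, was near the outer limit of the left window. Its right arm had 3 members away and 8 toward, and the left arm 7 and 6.

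On chromosome IV, whose interval differed between the versions, 24 members were split evenly, 12 away and 12 toward. RMD1 (447984 to 449276) and NTH1 (453325 to 455580) touched the interval, and NHP10 (1698 bp), an INO80 chromatin remodeller subunit gene, came next. Further members on the left were RPT2 (9916 bp), a proteasome ATPase gene, APC11 (15282 bp), the RING subunit gene of the anaphase-promoting complex, and SLX5 (18350 bp), a gene of a SUMO-targeted ubiquitin ligase. On the right, TRP1 (11622 bp), a tryptophan biosynthesis gene, is widely used as a centromere-linked marker. The median length of the chromosome IV members, 685.5 bp, was the lowest of the 16 chromosomes.

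Chromosome V had 22 members, 13 away and 9 toward. IRC22 (150301 to 150978) and MNN1 (153520 to 155808), a mannosyltransferase gene, touched the interval, and WBP1 (964 bp), an oligosaccharyltransferase subunit gene, followed IRC22. GCN4 (11215 bp), the transcription factor gene of amino acid biosynthesis, was also on the left arm.

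On chromosome VI, DEG1 (147131 to 148459), a pseudouridine synthase gene, and LOC1 (149110 to 149724) touched the interval. NIC96 (906 bp), a nuclear pore gene, followed LOC1 in the same direction. The right arm held 14 members, 11 of them away, including an unbroken run of 7 that was the longest on any arm. That run includes YFR009W-A, which lies within GCN20 on the same strand, and YFR010W-A. Neither has a locus tag in the RefSeq gene table of assembly R64. Proteasome genes were present on both sides: RPN11 (4283 bp), the lid deubiquitinase gene, and UBP6 (15957 bp) on the right, and the activator gene BLM10 (18549 bp; 6432 bp long) on the left.

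Chromosome VII had 24 members and the highest count away from the interval, 16 against 8 toward. ERG26 (495453 to 496502), a sterol synthesis gene, touched the interval. ERP6 lay at 1335 bp and SWC4, a subunit gene of SWR1 and NuA4, at 1343 bp on the other side. CUL3 (2999 bp) encodes a cullin. PMA1 (13836 bp), the plasma membrane proton pump gene, and LEU1 (17850 bp), a leucine synthesis gene and centromere-linked marker, lay on the left.

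Chromosome VIII had 21 members, 9 away and 12 toward. OSH7 (106055 to 107368), an oxysterol-binding protein homologue, touched the interval, and HSE1 (1121 bp), an endosomal sorting gene, and LEU5 (2757 bp), a mitochondrial carrier gene, were the next named ones. Members of the pheromone pathway lay on both sides, the kinase gene STE20 at 7154 bp on the left and the G protein alpha subunit gene GPA1 at 7444 bp on the right. ERG11 (14036 bp), the lanosterol demethylase gene, is the target of azole antifungals.

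On chromosome IX the counts were 8 away and 12 toward, and the left arm had 2 away and 8 toward, the lowest share away of any arm (20%). YIL001W (353940 to 355481) and SGN1 (356143 to 356895) touched the interval, followed by MPH1 (1272 bp), a DNA helicase gene, and INP51 (2050 bp), a phosphoinositide phosphatase gene. The DNA primase subunit gene PRI1 lay at 16934 bp.

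Chromosome X had 20 members, 13 away and 7 toward. AVT1 (436802 to 438610), a vacuolar amino acid transporter gene, touched the interval. OST1 (1275 bp) encodes a subunit of oligosaccharyltransferase, as does WBP1 on chromosome V, and MPP10 (2063 bp) belongs to small ribosomal subunit assembly. CYR1 (4689 bp), the adenylate cyclase gene, was the third longest member at 6081 bp.

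On chromosome XI, 18 members comprised 10 away and 8 toward. MET14 (438777 to 439385), a sulphate assimilation gene and centromere-linked marker, and VPS1 (440608 to 442722), a dynamin-related GTPase gene, touched the interval, and MRP17 (1893 bp), a mitochondrial ribosomal protein gene, was the next named member. TOF2 (18316 bp), which acts in the nucleolus, was near the outer limit.

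Chromosome XII had 24 members and the highest count toward the interval, 15 against 9 away. DNM1 (147890 to 150163), a dynamin-related GTPase gene of mitochondrial division, and YLR001C (151389 to 153977) touched the interval, and RTT109 (2562 bp), an H3 acetyltransferase gene, and NOC3 (2954 bp), a gene of ribosome assembly and replication, followed. NSE1 (13003 bp) encodes a subunit of the Smc5-Smc6 complex. Members covered 78.4% of the window bases there, the most of any chromosome. The least was 57.9%, on chromosome VIII. Genes of any kind covered 78.6% on chromosome XII and 71.5% on chromosome VIII, with the most on chromosome I (80.7%) and the least on chromosome III (67.0%).

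Chromosomes XIII and XIV had 25 and 27 members, the highest numbers. MIX17 (3174 bp) was the nearest named member of chromosome XIII after CDC5 and YPT7. YAP1 (12000 bp), a transcription factor gene of the oxidative stress response, ERG6 (14810 bp), a sterol synthesis gene, and SPT5 (16932 bp), a transcription elongation factor gene, lay on the left. On chromosome XIV, DOM34 (627456 to 628616), a gene of stalled ribosome rescue, and CIT1 (629622 to 631061), the mitochondrial citrate synthase gene, faced each other across the interval, and RLP7 (1474 bp), a gene of large ribosomal subunit assembly, came next. The counts were 14 away and 11 toward on chromosome XIII, and 15 and 12 on chromosome XIV.

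Chromosome XV had 23 members, 12 away and 11 toward. IZH2 (1766 bp) followed PHO80. Further out on the left arm lay SIN3 (4582 bp), a histone deacetylase complex gene, RPB11 (9955 bp), an RNA polymerase II subunit gene, and TOP1 (10743 bp), the topoisomerase I gene. On chromosome XVI, 18 members were split into 7 away and 11 toward, and they had the highest median length, 1639.5 bp. SNF8 (1401 bp), an endosomal sorting gene, followed HAT1. REC8 (12959 bp), the meiotic kleisin of cohesin, and CHL1 (13759 bp), a helicase gene known from sister chromatid cohesion, were on opposite arms.

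Lists of 219 genes, drawn from chromosome machinery, Mediator, glycolysis, ATP synthase and the proteasome, held 16 members, and 214 of the listed genes were intronless. The 16 lists were drawn up with earlier results of these data known. The members were 7.48% of the 214, against 5.52% of the whole intronless class. Histones contributed 4 of 11, all of them on chromosome II: HTB2 (236492 to 236887) and HTA2 (235394 to 235792) on the left, HHF1 (255373 to 255684; distance 16432 bp) and HHT1 (256331 to 256741; 17390 bp) on the right. In either pair the genes were divergent. The member nearer the interval, HTB2 or HHF1, was transcribed toward it, and the other away.

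Polo kinase and mitotic exit genes contributed 3 of 12 intronless genes: CDC5, the APC activator CDH1 on chromosome VII (492474 to 494174; 2328 bp) and the kinase CDC15 on chromosome I (172211 to 175135). CDC15 is the gene mutated in the cdc15-1 strain. Cohesin contributed MCD1 on chromosome IV (444683 to 446383; 2893 bp), the mitotic kleisin, 1 of 9 in a list that does not include the meiotic kleisin REC8, itself a member on chromosome XVI. The outer kinetochore list contributed DSN1 on chromosome IX (375431 to 377161; 19288 bp), 1 of 22. No member came from the condensin, chromosomal passenger, shugoshin, spindle checkpoint, inner kinetochore or silencing lists, so the genes for Ipl1 and Sgo1 lay outside the windows.

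The other lists contributed few genes. ORC3 (7240 bp), an origin recognition subunit gene, was 1 of 17 replication genes. RSC4 (11593 bp) and NHP10 were 2 of 23 RSC and INO80 genes, and MED2 (6967 bp) and CSE2 (14122 bp) 2 of 24 intronless Mediator genes. TDH2 (16881 bp), a glyceraldehyde phosphate dehydrogenase gene, was 1 of 17 for glycolysis, and ATP16 (5765 bp) 1 of 16 for the mitochondrial ATP synthase. The list of the proteasome core had no member. As background, PRE3 of that list touches the interval of chromosome X and has 2 exon records.

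Related genes recurred near different centromeres. The lineage of this yeast went through a whole-genome duplication, and many pairs of related genes remain in it. These families were picked after the positions had been seen, so their recurrence is a description. The neutral trehalase genes NTH1 and NTH2 both touched an interval, on chromosomes IV and II, both on the right arm and both transcribed toward it. RCR2 and RCR1 lay on the same 2 arms at 3902 and 6965 bp, both away.

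Citrate synthase genes lay on the right arm of 3 chromosomes. CIT1 on XIV and CIT3 on XVI touched the interval, and CIT2 on III, the peroxisomal enzyme, was at 5261 bp. CIT1 and CIT2 were transcribed toward the interval and CIT3 away. ATO2 and ADY2, of a family of acetate and ammonium transporters, accompanied CIT1 and CIT2 on chromosomes XIV and III, at 3386 and 16588 bp, both toward the interval.

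Chromosomes VIII and XI shared 2 families among their members. OSH7 on VIII touched the interval and OSH6 on XI lay at 4773 bp, both on the right arm and transcribed away. The ceramide synthase genes LAG1 on VIII and LAC1 on XI lay at 3208 and 10834 bp, both on the left arm and transcribed away. The mitochondrial NAD carrier genes YEA6 on V and YIA6 on IX lay at 5644 and 10298 bp on the left arm, both toward. DNM1 and VPS1 both touched an interval and pointed at it, but on opposite arms of chromosomes XII and XI. Phospholipase B genes were PLB2 (8542 bp) and PLB1 (11571 bp) on the right of chromosome XIII and PLB3 (18721 bp) on the left of chromosome XV, all 3 toward the interval.

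Over all members, transcription ran away from the interval in 174 and toward it in 174, exactly 50%, and it ran away in 2976 of 5954 among intronless genes elsewhere. By distance, the share away was 51.9% (56 of 108) within 5 kb, 45.3% (34 of 75) from 5 to 10 kb, 51.2% (43 of 84) from 10 to 15 kb and 50.6% (41 of 81) from 15 to 20 kb. More members ran away than toward on 15 arms, fewer on 14, and 3 arms were even. By arm the share ran from 20% on the left of chromosome IX to 78.6% on the right of chromosome VI. With 6 to 15 members an arm, such shares are coarse, and the last one counts YFR009W-A and YFR010W-A, which have no RefSeq tag. On the left arms 79 of 166 members ran away from the interval, and on the right arms 95 of 182. The genes are fixed features of 1 annotation with no replicates, so no test was applied to these shares.

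**Figure D2:**
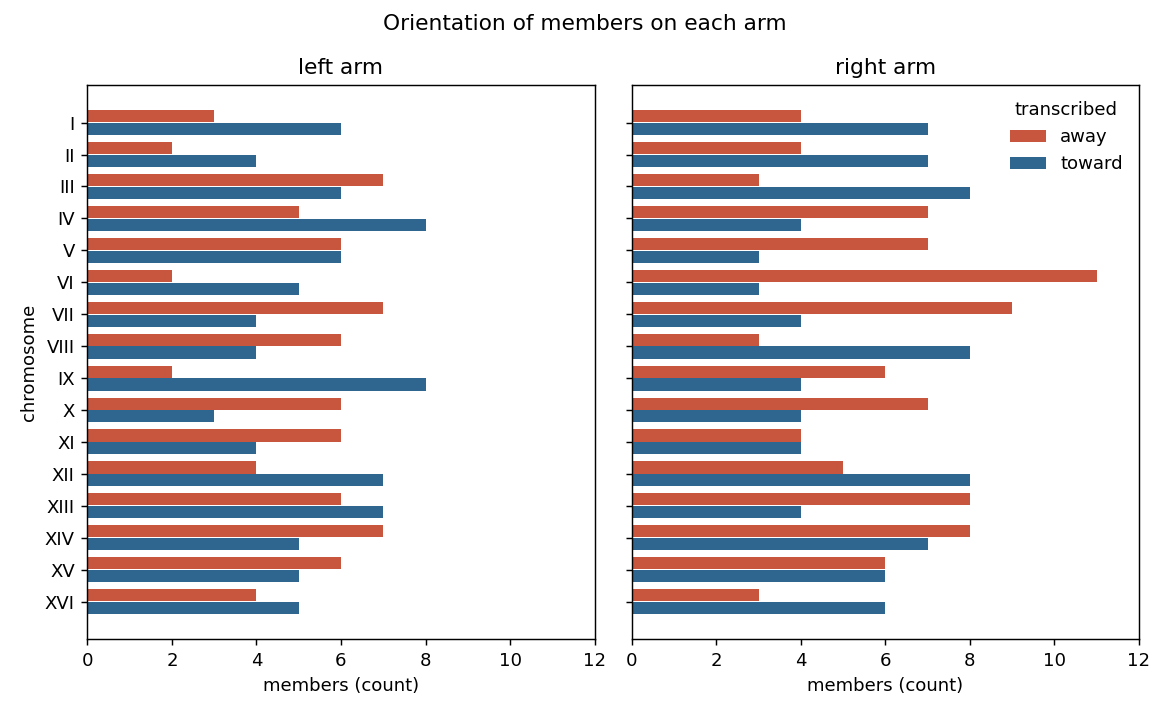
Number of members transcribed away from (upper bar) and toward (lower bar) the interval on each of the 32 arms, left arms in the left panel and right arms in the right panel. The right arm of chromosome VI has 11 away and 3 toward, and the left arm of chromosome IX 2 away and 8 toward.

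Neighbouring protein-coding genes inside the windows formed 343 pairs on the same arm, the 27 genes with 2 or more exon records included. Of these, 97 were convergent (28.3%), 97 divergent (28.3%) and 149 in tandem (43.4%). Elsewhere, 1717 of 6289 pairs were convergent (27.3%), 1716 divergent (27.3%) and 2856 in tandem (45.4%). The composition in the windows was thus within 2 percentage points of that elsewhere.

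Every arm had a convergent pair within 20 kb, the first one outward lying a median of 3735.5 bp from the interval, measured to the 3′ end of the inner gene. In 30 of 32 arms (93.8%) it lay within 10 kb. From the 6218 protein-coding genes outside the windows that have a convergent pair further out, the same measure gave a median of 3574.5 bp and 89.8% within 10 kb. Both genes of the first pair were members on 23 arms. On the other arms 1 gene of the pair had more than 1 exon record.

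The nearest first pairs were ECM15 with HTB2 on the left of chromosome II and YCR001W with CDC10 on the right of chromosome III, both 314 bp from the interval, and MET14 with DID4, a gene with 2 exon records, on the left of chromosome XI (608 bp). The gap of the ECM15 and HTB2 pair was 265 bp and that of YCR001W and CDC10 was 1380 bp. The farthest were SPO75 with MMM1 on the left of chromosome XII (12223 bp), SSL1 with SSK1 on its right (10045 bp) and IST3 with PAN1 on the right of chromosome IX (9192 bp). MMM1 encodes a subunit of the tether between endoplasmic reticulum and mitochondria, SSL1 a TFIIH subunit, SSK1 a regulator of the osmotic stress pathway, IST3 a splicing factor and PAN1 a protein of endocytosis. On the left of chromosome IV, the pair was NHP10 with the cohesin gene MCD1, 2309 bp from the interval and with a gap of 583 bp, and on the right it was RAD57, a recombination gene, with MAF1 (6363 bp), a gene with 2 exon records.

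The stretch between the 3′ ends of the inner genes of both first convergent pairs includes those genes and the interval. It was shortest on chromosome III, 5190 bp, and longest on chromosome XII, 23493 bp. The median of the 16 chromosomes was 8362 bp. The right-hand pair was the farther one on 11 chromosomes and the left-hand pair on 5. Chromosome IV had 12720 bp in the before version, of which the interval was 4048 bp.

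**Figure D3:**
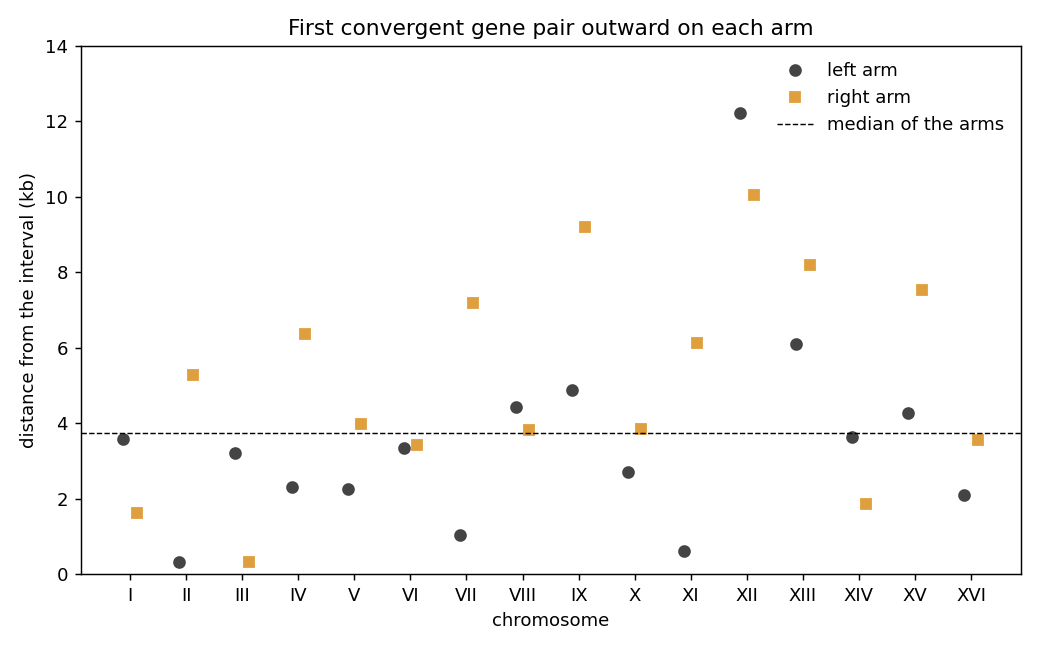
Distance in kb from the interval to the first convergent pair of protein-coding genes outward, for the left (circles) and right (squares) arm of each chromosome; the dashed line is the median of the 32 arms, 3735.5 bp. All points lie between 314 and 12223 bp, and both points of chromosome XII lie above 10 kb.

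The gap to the next gene of any kind had a median of 342 bp over the 696 sides of the members, with quartiles of 215 and 571 bp. For intronless genes elsewhere the median was 307 bp, with quartiles of 174 and 523 bp. On 28 of the 696 sides the gap is the interval itself, and without them the members' median was 329 bp. Among members, the shortest gaps without overlap were 27 bp between RCR2 and YDR003W-A, 32 bp between YHL005C and SHU1, and 45 bp between YLL006W-A and YLL007C. The longest gaps between neighbouring protein-coding members were 3007 bp between YCR006C and YCR007C, 2572 bp between YDL007C-A and APC11, and 2139 bp between GCN4 and YEL009C-A. These stretches are not free of genes of other kinds. Within them, the next gene of any kind lay 573 bp from YCR006C, 269 bp from APC11 and 180 bp from GCN4.

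Gaps differed by the orientation of the neighbours. In the windows, the median was 232 bp for convergent, 464 bp for divergent and 424 bp for tandem pairs. Elsewhere it was 206 bp for convergent, 376.5 bp for divergent and 374 bp for tandem pairs. Overlapping pairs, counted as negative gaps, made up 9.28% of divergent pairs in the windows and 17.1% elsewhere. With overlapping pairs left out, the divergent medians were 499.5 bp in the windows and 485 bp elsewhere.

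**Figure D4:**
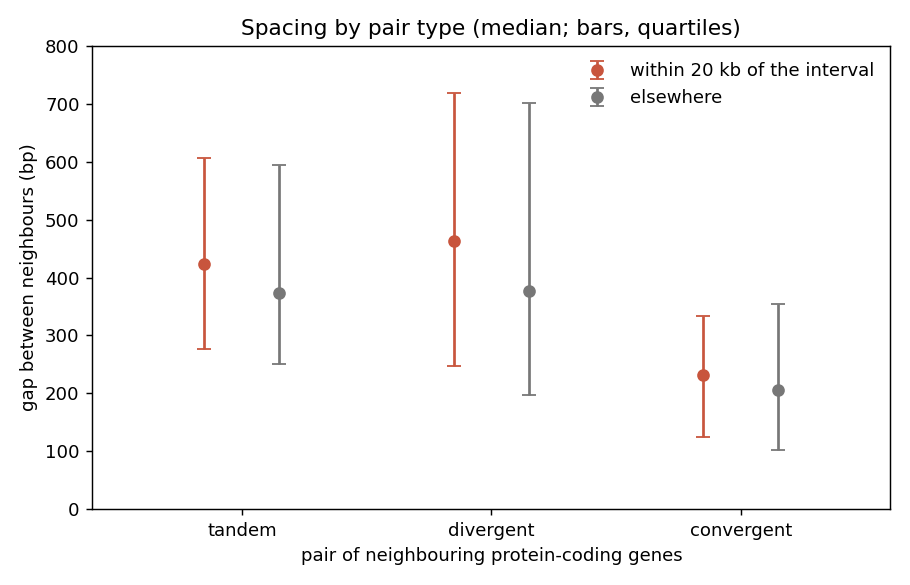
Gap in bp between neighbouring protein-coding genes that are in tandem, divergent or convergent, within 20 kb of the intervals (left of each pair) and elsewhere (right); points are medians and bars run from the lower to the upper quartile, overlaps included as negative gaps. Convergent gaps are the shortest in both regions, with medians of 232 bp in the windows and 206 bp elsewhere.

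Overlap with another gene was recorded for 42 of 348 members (12.1%) and for 1206 of 5954 intronless genes elsewhere (20.3%). Of the 42 members, 18 have no locus tag in the RefSeq gene table of assembly R64, among them YAL004W, which lies within SSA1 on the other strand, and YDR008C, which overlaps TRP1. With genes that lack a RefSeq tag left out also as neighbours, an overlap was recorded for 7 of 327 members (2.14%) and 163 of 5303 genes elsewhere (3.07%). Overlaps of tagged genes with untagged ones, such as those of SSA1 and TRP1, are not in these counts. A tag was present for 327 members (94.0%) and for 5303 genes elsewhere (89.1%). Without genes within 30 kb of a chromosome end, it was present for 4934 of 5500 genes elsewhere (89.7%), and the overlap share there was 20.3%.

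A standard name was given for 81.6% of members (284 of 348) and 75.1% of genes elsewhere (4473 of 5954), and the order turned in the widest window tried: the share was 77.4% within 30 kb against 75.3% elsewhere, and 75.03% within 50 kb against 75.56% elsewhere. By distance, the share with a RefSeq tag was 96.3% within 5 kb, 94.7% from 5 to 10 kb, 94.0% from 10 to 15 kb and 90.1% from 15 to 20 kb. Just outside the windows it was 90.6% from 20 to 25 kb and 85.2% from 25 to 30 kb. Single steps beyond that, out to 100 kb, lay between 81.5% (65 to 70 kb) and 94.8% (85 to 90 kb).

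**Figure D5:**
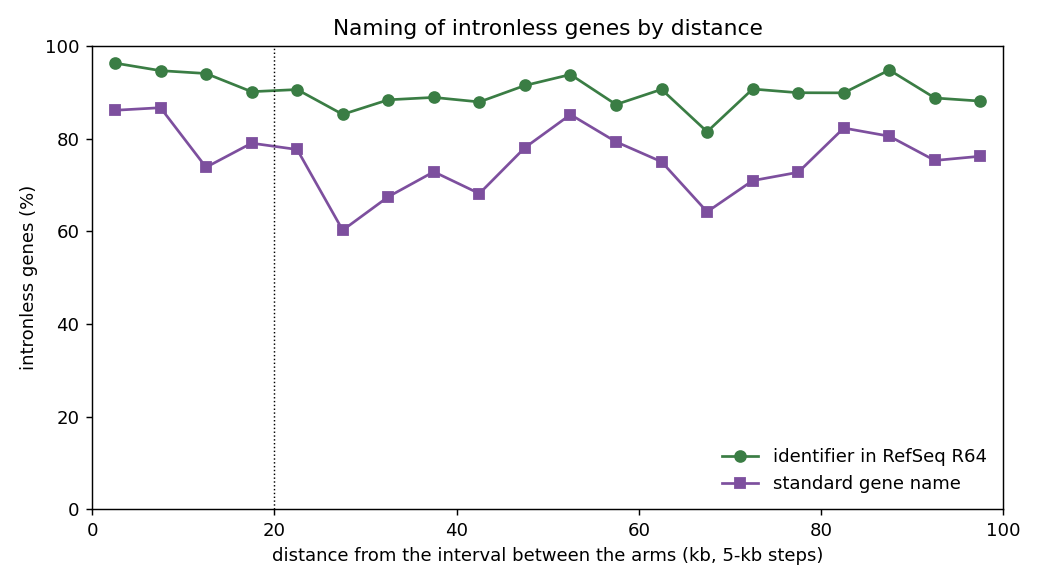
Percent of intronless protein-coding genes whose identifier is in the RefSeq R64 gene table (circles) and percent with a standard gene name (squares), by distance from the interval in steps of 5 kb up to 100 kb; the dotted line marks 20 kb. The RefSeq share is 96.3% in the first step and 90.1% in the step that ends at 20 kb.

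Members had a median length of 1164 bp (quartiles 631.5 and 1814.25 bp), and genes elsewhere 1104 bp (quartiles 552 and 1778.25 bp). Genes under 300 bp made up 6.61% of members and 6.70% of genes elsewhere. The shortest members were YGL007C-A (87 bp), YEL008C-A (93 bp) and YNR003W-A (99 bp), of which only the first has a RefSeq tag. The longest were UTP20, BLM10 and CYR1. With RefSeq genes only, the medians were 1242 bp for members and 1236 bp elsewhere.

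Transfer RNA genes were frequent neighbours. The windows held 29 of 275 nuclear tRNA genes (10.5%) beside 5.63% of the protein-coding genes, and 48 members (13.8%) were next to a tRNA gene, against 422 intronless genes elsewhere (7.09%). Every chromosome but VII had at least 1 tRNA gene in its windows, and chromosome VI had 4. Neither rRNA genes nor pseudogenes occurred there.

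Between the versions, 11 of the 348 members changed coordinates, all of them on the right arm of chromosome IV and all by -3423 bp. The interval measured 625 bp in the after version (449277 to 449901) and 4048 bp in the before version (449277 to 453324). Since distances are counted from the interval's edge, all 348 genes met the rule in either version, and their order, orientation and lengths were equal. TRP1, for example, lay at 461524 to 462198 in the after version and at 464947 to 465621 in the before version. The interval is bounded by annotated genes, so these values do not show where in it the sequence changed.

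The bins in which a signal could be read gave these genes very different resolution. The deposited grid cuts every nuclear chromosome into the same number of bins, and bin size ran from 461 bp (chromosome I) up to 3071 bp (chromosome IV, before grid). By gene midpoint, the 348 members fell into 303 bins. On chromosomes I, III, IX and XI each member had a bin of its own, and on chromosome IV 24 members shared 14 bins, 1.71 per bin. Counting every bin that a member overlaps, chromosome I members reached 81 bins and chromosome IV members 16.

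Only on chromosome IV did members change bin number between the grids, 13 of 24. On its left arm, 4 members fell 1 bin higher in the after grid and 9 kept their number, although their coordinates were equal. On its right arm, 9 fell 1 bin lower and 2, NTH1 (bin 148) and RCR2 (bin 149), kept their number. RAD57 was in bin 149 in the after grid and bin 150 in the before grid, and SNQ2, a drug efflux pump gene, in bin 153 in the after grid and bin 154 in the before grid. NHP10 and MCD1 shared bin 146 in both, so that their convergent gap fell in a single bin with both genes' midpoints.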

How the data were processed

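The deposited files are gene annotations, chromosome lengths and bins of 2 genome versions. Their values are positions and lengths in bp, with no count, signal or other measurement attached, and the authors' annotation records name Ensembl in their source field. The submitters' processing notes name Bowtie2 (2.2.9) for the libraries. How chromosome IV was changed, which libraries belong to which version and what build was used are details not given in the sources used here.

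A gene's extent ran from its first to its last record. Members and gene lists were chosen with earlier results of these data known. Named genes were, by rule, those next to the interval, list members, the extremes of length, gap, distance threshold and first convergent pair, chromosome IV members and the 3 nearest named genes per chromosome. The rest were picked for a known role after their positions were seen. RefSeq R64 was used for locus tags only. No test was applied, because the coordinates have no replicates or sampling error. The steps were checked on simulated data with 1920 genes on 32 arms, and all 32 arms were recovered. Sequences were not used here. Calculations ran in Python 3.11.15 (scipy 1.17.1, numpy 2.4.6, pandas 2.3.3).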

Additional observations from a re-analysis of the deposited data

How the results depend on the processing

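Other windows gave 183 genes at 10 kb, 521 at 30 kb and 861 at 50 kb in place of 348. The share transcribed away stayed between 48.5% and 50.8% under all 11 alternatives run. They were other windows, distance by midpoint or farthest end, and other definitions of arms or introns. RefSeq genes only, the after version and leaving out chromosome IV were also run. The after version, arms bounded by protein-coding genes and introns judged by CDS records each returned the same 348 genes and 50%. The after version and the arm definition kept the same genes at the interval's edges, so neither could change the share. The median gap was 310 bp at 50 kb and 403 bp with RefSeq genes only, against 308 and 358.5 bp elsewhere under the same settings, and the median length was 1062 bp at 30 kb, against 1107 bp elsewhere. The last value turns the order of the length medians, as does 50 kb (1089 against 1110 bp). The cause was not tested. Convergent pairs made up 27.6% to 28.8% under 6 alternatives. With RefSeq genes only, the share was 27.6% in the windows and 25.6% elsewhere. Under the other alternatives it was 27.3% elsewhere. With RefSeq genes only, the first convergent pair differed on 1 arm by distance (9232 in place of 1859 bp, right arm of chromosome XIV) and the median was 3837 bp. Members reached 549 bins when every overlapped bin was counted, against 303 by midpoint. In alternatives chosen after seeing the data, the share with a RefSeq tag was 95.6% at 10 kb, 91.9% at 30 kb and 90.8% at 50 kb. The share with a standard name was 86.3% at 10 kb, 77.4% at 30 kb and 75.03% at 50 kb, against 75.2%, 75.3% and 75.6% elsewhere, so its order turned at 50 kb. No paired analysis was possible because the deposited tables carry coordinates and not signal of the libraries.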
